A study of Mus musculus with 8 samples.

Results

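Endoplasmic reticulum chaperone genes were followed here as a set of 37 mouse genes: chaperones and co-chaperones, folding enzymes, degradation and translocation genes, and the sensors of folding stress. A probe belonged to the set if the array files gave it the name of a listed gene, or an older name of it (Armet for Manf, Tra1 for Hsp90b1, Myd116 for Ppp1r15a). All 37 genes were found, with 72 probes of the 41174 on the array, and each was read from its brightest probe. All 37 passed the filter on low values, as did 19988 features of the whole array. It asked that, in at least 1 comparison, both arrays read a probe well above background for one of the RNAs.

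The cells were B cell precursors (pro/preB cells) from the bone marrow of Pax5-/- mice, which lack the transcription factor that commits lymphoid progenitors to the B lineage. All cultures shared this deletion, IL-7 and a layer of irradiated OP9 stromal cells, and all carried retroviral vectors. Clone 4, a line from 1 clone, carried the human transgene huPax5 together with rtTA, the doxycycline-dependent transactivator, and its RNA was taken after 10, 300 or 1000 ng/ml doxycycline. The cells named Pax5sz2 had been transduced with rtTA alone, without the transgene, and are labelled as treated with doxycycline at no given dose. The control for all 4 of these named RNAs was RNA labelled as clone 4 at 0 ng/ml, and each pair was hybridised to 2 arrays with exchanged dyes. Array 1 is the array with the named RNA in Cy5, and array 2 the one with it in Cy3. Every ratio below is log2 of the named RNA over that control, and every ± is the SD of the 2 arrays (n = 2). Both arrays of a comparison hold the same RNA extracts, and there were no replicate cultures. A single comparison therefore has no p-value, and a gene is called past 2-fold where its log2 ratio was at least 1 in size on both arrays in the same direction. In Pax5sz2 the missing transgene, the treatment and the different cells cannot be told apart.

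Which way the 1000 ng/ml pair runs is not settled. Its arrays carry a mark of rehybridisation, were scanned earlier and were read with an older image analysis protocol than the other 6. Their ratios correlated negatively with the 300 ng/ml ratios (r = -0.359 between both array 1 and -0.46 between both array 2). The correlations were weaker with 10 ng/ml (-0.17 and -0.208) and with Pax5sz2 (-0.277 and -0.132). All are across all probes, which are not independent replicates. Values of the 1000 ng/ml pair are given as labelled and change sign if it is turned. Its channels read 40.4% to 45.1% of spots as well above background, against 59.5% to 75.5% for the other 6 arrays, whose call used a multiplier of 13 in place of 2.6. No spot was saturated, and the number of arrays limits the precision. Of 15 pro-B cell markers, 11 to 15 were well above background on both arrays in a named RNA and 12 to 15 in the control. Neither RNA had the surrogate light chain gene Igll1 well above background at 300 and 1000 ng/ml, or Vpreb1 at 300 ng/ml.

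Proteins of the secretory pathway enter the endoplasmic reticulum through the Sec61 channel, are folded there by chaperones, lectins and disulphide isomerases, and are sent to the proteasome if folding fails. When unfolded proteins accumulate, the sensors IRE1, PERK and ATF6 slow translation and switch on the genes of the folding machinery, partly through ATF6 and XBP1 at a promoter sequence called the endoplasmic reticulum stress response element (ERSE). In the B lineage this machinery is best known for its growth when B cells become antibody-secreting plasma cells.

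That promoter sequence was not used directly in choosing the set, which was made from gene names. Many of the genes were listed because they are known targets of this response. A high share of the element in the set could therefore be foreseen and is not a test. Promoters, 250 bases before to 50 bases after the start site, were read from RefSeq (GRCm38.p6) for the 30 genes that matched by symbol. Both strands were searched for ERSE, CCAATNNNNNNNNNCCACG, and for ERSE-II, ATTGGNCCACG. ERSE was found in 10 of 30 genes (33.3%), against 37 of 27025 mouse genes (0.137%), which include these 10. Of all 32851 promoters, 39 held it (0.119%). ERSE-II was found in Dnajb11 and Herpud1 (6.67%), against 0.0444% of all genes and 0.0365% of all promoters, and no ERSE match overlapped an ERSE-II match. The core of a further element, TGACGTGG, was in 0 of 30 genes, 0.714% of all genes and 0.676% of all promoters. The matches are shown because 10 of the genes share the fixed letters of ERSE and the other 2 those of ERSE-II. Each is read on the strand given, with 10 bases on either side, and the capitals mark the fixed letters of the element. Hsp90b1, which encodes the chaperone GRP94, holds 2 of them.
Hspa5, chr2:34772015-34772053 (+ strand): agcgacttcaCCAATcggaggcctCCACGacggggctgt
Hsp90b1, chr10:86705523-86705561 (+ strand): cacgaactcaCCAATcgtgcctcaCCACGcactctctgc
Hsp90b1, chr10:86705628-86705666 (- strand): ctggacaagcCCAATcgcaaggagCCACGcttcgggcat
Calr, chr8:84847065-84847103 (+ strand): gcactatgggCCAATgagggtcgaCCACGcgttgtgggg
Canx, chr11:50325790-50325828 (- strand): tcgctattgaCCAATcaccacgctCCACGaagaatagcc
Pdia6, chr12:17266481-17266519 (+ strand): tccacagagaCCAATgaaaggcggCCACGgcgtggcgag
Ero1lb, chr13:12565672-12565710 (- strand): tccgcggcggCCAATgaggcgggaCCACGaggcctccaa
Creld2, chr15:88819510-88819548 (- strand): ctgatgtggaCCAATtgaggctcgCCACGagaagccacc
Dnajc3, chr14:118937817-118937855 (+ strand): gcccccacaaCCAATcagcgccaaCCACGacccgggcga
Derl3, chr10:75893232-75893270 (- strand): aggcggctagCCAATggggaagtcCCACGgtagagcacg
Syvn1, chr19:6046522-6046560 (+ strand): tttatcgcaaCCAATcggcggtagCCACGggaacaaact
Dnajb11, chr16:22857842-22857872 (+ strand): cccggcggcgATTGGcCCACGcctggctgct
Herpud1, chr8:94386367-94386397 (+ strand): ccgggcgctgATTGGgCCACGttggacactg
The ERSE of Hspa5 lies closest to the start site among the genes of the chaperones themselves, from position -65 to -47, and that of Syvn1 lies at -44 to -26. The ERSE-II of Dnajb11 lies at 8 to 18, inside the transcribed part. A match describes the letters of the window and is not a measured binding site, and a gene without a match lacks only these letters in this window.

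**Figure D1:**
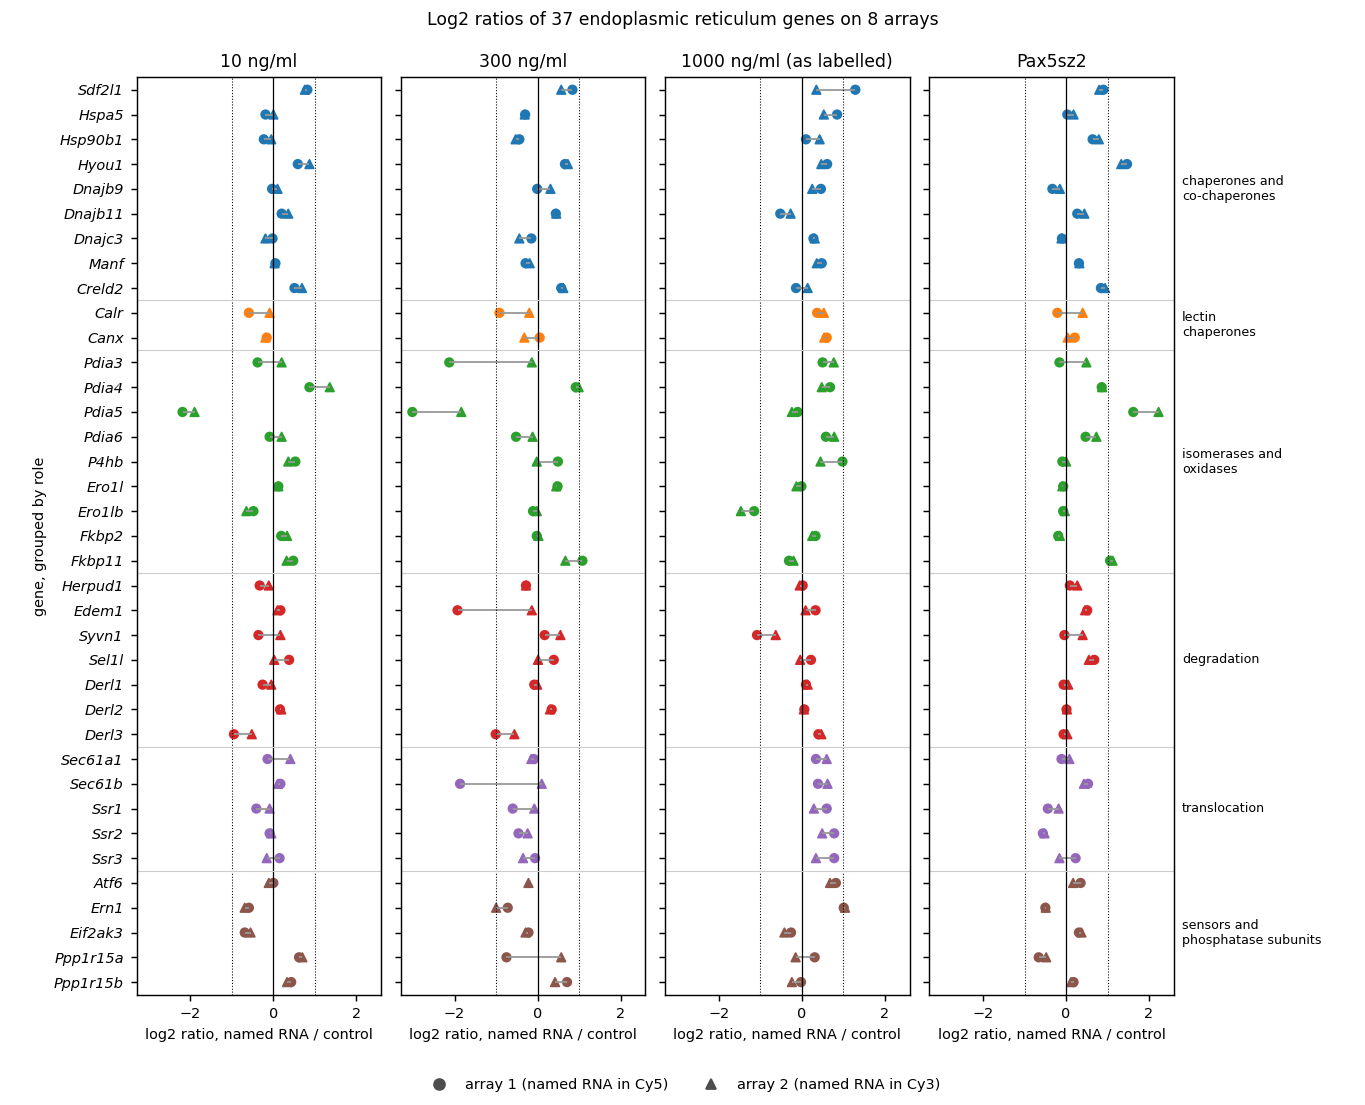
Log2 ratio of the named RNA over the control (x axis) for the 37 genes (y axis, grouped by role and coloured by it) in the 4 comparisons, with a circle for array 1, a triangle for array 2 and dotted lines at -1 and 1. Most genes lie between the dotted lines, Pdia5 lies outside them in 3 panels, and Pdia3, Edem1 and Sec61b at 300 ng/ml have arrays far apart.

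Few of the 37 genes differed by 2-fold in any comparison. At 10 ng/ml, 0 were past 2-fold higher (0.595% of all features were) and 1 was lower (1.27%). At 300 ng/ml, 0 were higher (1.31%) and 1 was lower (2.36%). In both cases the lower gene was Pdia5. At 1000 ng/ml as labelled, Ern1 was higher (1 gene, 1.94%) and Ero1lb lower (1 gene, 0.635%). In Pax5sz2, Pdia5, Hyou1 and Fkbp11 were higher (3 genes, 2.34%) and 0 lower (2.82%). Over all features the calls split into 119 higher and 254 lower at 10 ng/ml, 261 and 472 at 300 ng/ml, and 468 and 564 in Pax5sz2. With median centring in place of loess these became 73 and 75, 95 and 384, and 477 and 203.

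With a limit of 1.5-fold, 4 genes were higher (3.12% of all features) and 2 lower (5.22%) at 10 ng/ml, 3 higher (5.01%) and 2 lower (7.5%) at 300 ng/ml, 2 higher (4.77%) and 2 lower (2.05%) at 1000 ng/ml as labelled, and 7 higher (6.42%) and 0 lower (7.55%) in Pax5sz2. The 7 in Pax5sz2 were the chaperone genes Sdf2l1, Hsp90b1, Hyou1 and Creld2 and the isomerase genes Pdia4, Pdia5 and Fkbp11. The higher genes at 10 ng/ml were Sdf2l1, Hyou1, Pdia4 and Ppp1r15a, and the lower Pdia5 and Ern1. At 300 ng/ml Hyou1, Pdia4 and Fkbp11 were higher, and Pdia5 and Ern1 lower. Those at 1000 ng/ml as labelled were Atf6 and Ern1, higher, and Ero1lb and Syvn1, lower. The comparisons share RNA labelled as the same control, so their lists are not independent.

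Smaller ratios were spread unevenly. At 10 ng/ml, 16 genes were above 0 on both arrays (43.2%, against 38.5% of all features) and 13 below (35.1%, against 36%). At 300 ng/ml, 11 were above (29.7%, against 35.8%) and 19 below (51.4%, against 35%). At 1000 ng/ml as labelled, 25 were above (67.6%, against 33.7%) and 8 below (21.6%, against 30.5%), sides that change over if the pair is turned. In Pax5sz2, 20 were above (54.1%, against 41.9%) and 10 below (27%, against 35.2%). Further folding, degradation and translocation genes, given below, leaned to the same sides at 300 and 1000 ng/ml. In the order 10, 300 and 1000 ng/ml (as labelled) and Pax5sz2, the median ratio of the 37 genes was 0.04, -0.14, 0.36 and 0.15, and that of all features 0.01, 0.00, 0.00 and 0.03. Over the alternatives of processing the median of the set ran from -0.02 to 0.31, from -0.15 to 0.00, from 0.26 to 0.51 and from 0.09 to 0.63. Its direction at 10 ng/ml therefore changed, when array 2 was left out. In Pax5sz2, median centring and Agilent's processed signals each moved the median of all features to 0.15.

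Among the chaperones and co-chaperones, Sdf2l1, Hyou1 and Creld2 had the largest mean ratios at 10 and 300 ng/ml and in Pax5sz2. Sdf2l1, a component of the chaperone complex around BiP, had ratios of 0.82 and 0.76 on arrays 1 and 2 at 10 ng/ml, 0.84 and 0.57 at 300 ng/ml, 1.29 and 0.35 at 1000 ng/ml as labelled, and 0.90 and 0.80 in Pax5sz2. The named and control levels did not overlap within any comparison, but the arrays at 1000 ng/ml were far apart (0.82 ± 0.66). The mean differences were 1.73-fold and 1.63-fold at 10 and 300 ng/ml, and 1.8-fold in Pax5sz2.

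Creld2, an isomerase-like protein that is secreted under folding stress, had ratios of 0.51 and 0.69 at 10 ng/ml, 0.57 and 0.62 at 300 ng/ml and 0.84 and 0.94 in Pax5sz2. The 1000 ng/ml arrays gave -0.14 and 0.14, on either side of 0. The largest was thus in Pax5sz2 (0.89 ± 0.073, 1.85-fold).

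Hyou1, a large chaperone that exchanges the nucleotide of BiP, was the chaperone gene past 2-fold. In Pax5sz2 its level was 13.68 and 13.41 (log2) against 12.22 and 12.08 in the control, a ratio of 1.40 ± 0.095 or 2.64-fold. Its ratios were 0.59 and 0.87 at 10 ng/ml, 0.66 and 0.73 at 300 ng/ml and 0.61 and 0.47 at 1000 ng/ml as labelled. These values come from a probe at chr9:44143279-44143338 (mm8). A second, dimmer probe of Hyou1 gave -0.30, -0.30, 0.08 and -0.34 in the order 10, 300, 1000 ng/ml and Pax5sz2, so the probes of this gene did not show the same direction. With the mean of its detected probes the ratio in Pax5sz2 was 0.53 and was no longer past 2-fold.

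Hspa5, which encodes BiP, the main chaperone of the compartment and a common readout of folding stress, had ratios of -0.19 and 0.00 at 10 ng/ml, -0.30 and -0.31 at 300 ng/ml, and 0.03 and 0.18 in Pax5sz2. At 1000 ng/ml as labelled they were 0.85 and 0.53 (0.69 ± 0.23, 1.61-fold), or 1.61-fold lower with the pair turned. It was past 1.5-fold on both arrays in none of the comparisons.

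Hsp90b1 had ratios of -0.23 and -0.05 at 10 ng/ml, -0.44 and -0.53 at 300 ng/ml, 0.10 and 0.43 at 1000 ng/ml as labelled, and 0.64 and 0.79 in Pax5sz2. It was thus below the control at 300 ng/ml and above it in Pax5sz2 on both arrays. Its second probe gave -0.58, -1.07, 0.53 and -1.08 in the same order, which in Pax5sz2 was opposite in sign to the brightest probe. The other 4 genes of this group were the J-domain co-chaperones Dnajb9, Dnajb11 and Dnajc3 and the secreted factor Manf. Their mean ratios ran from -0.39 (Dnajb11 at 1000 ng/ml as labelled) to 0.45 (Dnajb11 at 300 ng/ml). Other probes of Dnajc3 ran from -1.63 ± 1.01 at 300 ng/ml to 0.45 ± 0.23 at 1000 ng/ml as labelled.

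The lectin chaperones Calr and Canx, which hold newly made glycoproteins until they are folded, were both below the control on average at 10 and 300 ng/ml. Calr had ratios of -0.59 and -0.09 at 10 ng/ml, -0.92 and -0.20 at 300 ng/ml, 0.37 and 0.53 at 1000 ng/ml as labelled, and -0.21 and 0.40 in Pax5sz2, where the arrays lay on opposite sides of 0. A second Calr probe was further from 0 (-1.33 ± 0.40, -1.64 ± 0.34, 0.80 ± 0.012 and -1.68 ± 0.47). Canx had means of -0.17, -0.14, 0.57 and 0.12 in the same order, with its arrays on opposite sides of 0 at 300 ng/ml, and its 2 other probes gave -0.12 and 0.27 at 10 ng/ml.

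**Figure D2:**
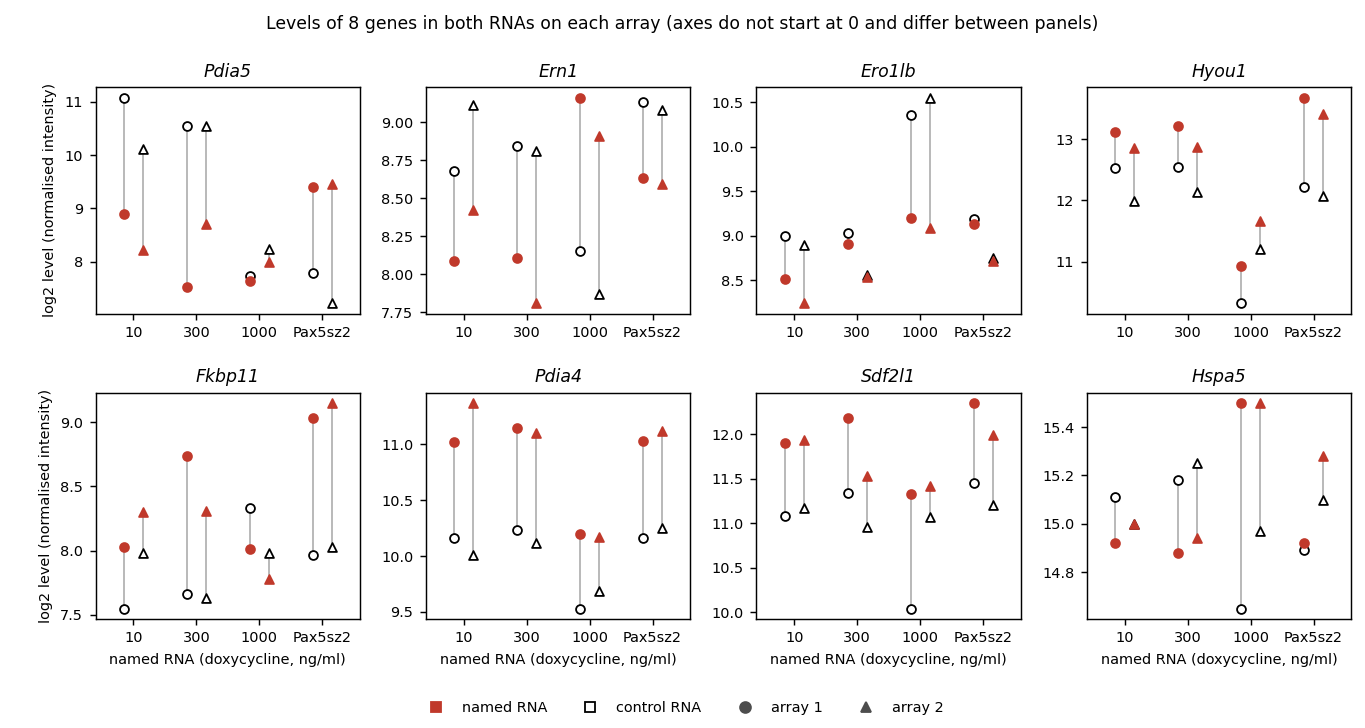
Log2 level (y axis, normalised intensity) of 8 genes in the named RNA (red) and in the control RNA (open) on array 1 (circles) and array 2 (triangles) of each comparison (x axis). For Pdia5 the control level, near 10 to 11 at 10 and 300 ng/ml, is below 9 in the other comparisons.

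Pdia5, a disulphide isomerase, had the largest ratios of the set. Its named RNA at 10 ng/ml was at 8.89 and 8.22 (log2 level on arrays 1 and 2) and the control at 11.08 and 10.12. At 300 ng/ml the named RNA was at 7.52 and 8.71 and the control at 10.54 and 10.55. The ratios were -2.19 and -1.90 at 10 ng/ml and -3.02 and -1.84 at 300 ng/ml, that is 4.13-fold and 5.39-fold lower than the control, with no overlap between the RNAs. The arrays at 300 ng/ml were far apart (-2.43 ± 0.835), and the larger fold there came from array 1. In Pax5sz2 the named RNA was at 9.40 and 9.45 and the control at 7.78 and 7.22, ratios of 1.62 and 2.23 and 3.8-fold higher. Both RNAs were low at 1000 ng/ml, with levels of 7.64 and 7.99 against 7.74 and 8.23, with ratios of -0.10 and -0.24. The calls at 10 and 300 ng/ml and in Pax5sz2 were kept under 8 of 8 alternatives of processing each, with ranges of -2.19 to -1.83, -3.02 to -1.84 and 1.62 to 2.56. The gene has 1 probe in the set, at chr16:35327381-35327440 (mm8).

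The control RNA carries the same label in all 4 comparisons, but its Pdia5 level did not stay the same. Over the 6 later arrays the control level of Pdia5 ranged over 3.86 (log2), from 10.12 to 11.08 beside the 10 and 300 ng/ml RNAs and from 7.22 to 7.78 beside Pax5sz2. The highest range among the other genes was 0.93, the median of the set was 0.44 and that of all features 0.39. A range over 2 was seen in 122 of 19799 features (0.616%), and in 1 gene of the set. The named RNA of Pax5sz2 (9.40 and 9.45) lay below the control of the 10 and 300 ng/ml arrays and above its own. The named RNAs of 10 and 300 ng/ml, at 7.52 to 8.89, were not below the control range beside Pax5sz2. Beside the 1000 ng/ml RNA the control was at 7.74 and 8.23. The lower ratios of Pdia5 at 10 and 300 ng/ml therefore hold against the control of their own arrays only. Why the control level differed was not tested.

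**Figure D3:**
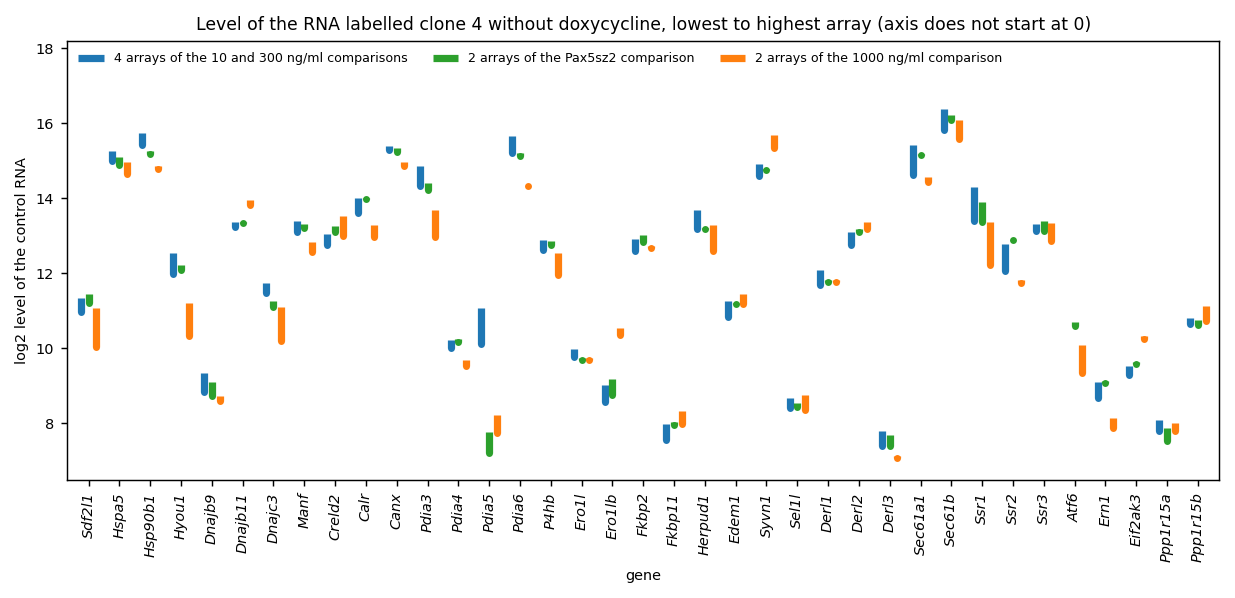
Log2 level of the RNA labelled as clone 4 without doxycycline (y axis) for each gene (x axis), with bars from the lowest to the highest array of the 10 and 300 ng/ml comparisons (blue), the Pax5sz2 comparison (green) and the 1000 ng/ml comparison (orange). The blue bar of Pdia5 (10.12 to 11.08) stands apart from its green bar (7.22 to 7.78), and Atf6 has no blue bar because 1 of its spots was left out.

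The other isomerases and oxidases lay on both sides of the control. Pdia4, a disulphide isomerase of the BiP complex, had ratios of 0.87 and 1.36 at 10 ng/ml, 0.92 and 0.99 at 300 ng/ml, 0.68 and 0.48 at 1000 ng/ml as labelled, and 0.86 and 0.87 in Pax5sz2. The mean differences were 2.17-fold, 1.93-fold, 1.49-fold and 1.82-fold, with no overlap between the RNAs within a comparison, and Pdia4 missed the 2-fold rule at 10 ng/ml because of array 1. Pdia4 has no second probe in the set.

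Pdia3, the isomerase that works with calnexin and calreticulin, had ratios of -0.38 and 0.20 at 10 ng/ml, -2.13 and -0.14 at 300 ng/ml, 0.50 and 0.77 at 1000 ng/ml as labelled, and -0.16 and 0.49 in Pax5sz2. Its mean of -1.13 ± 1.41 at 300 ng/ml came from array 1. On that array Edem1, a lectin-like factor that hands misfolded glycoproteins to degradation, was at -1.93 (array 2 -0.14), and Sec61b, a subunit of the translocation channel, at -1.87 (array 2 0.10). In all, 6 of the 37 genes, Pdia5 among them, had an SD over 0.5 at 300 ng/ml, against 1 at 1000 ng/ml and 0 in each of the other comparisons. Array 1 at 300 ng/ml had 295 outlier spots, which were left out, against 37 to 115 on the other arrays. Across all probes its pair correlated at r = 0.627, against 0.785 to 0.909 in the other comparisons. Without array 1, Pdia3 and Edem1 were both at -0.14, and no ratio of either is read as a difference here.

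Ero1lb, an oxidase that recharges disulphide isomerases (Ero1b in current naming), was the gene past 2-fold lower at 1000 ng/ml as labelled. Its named RNA was at 9.20 and 9.08 and the control at 10.35 and 10.55, ratios of -1.15 and -1.47 (2.48-fold lower). The ratios were -0.48 and -0.65 at 10 ng/ml, -0.11 and -0.02 at 300 ng/ml, and -0.07 and -0.03 in Pax5sz2. The probe lies at chr13:12664092-12664151 (mm8). The other 2 detected probes gave -0.54 and -0.02 at 1000 ng/ml, and the mean of the probes, -0.62, did not pass. Its paralogue Ero1l (Ero1a) had means of 0.12, 0.46, -0.07 and -0.08. Another probe of Ero1l had the opposite sign at 10 and 300 ng/ml, -0.25 and -0.20.

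Fkbp11, a prolyl isomerase known from secretory cells such as plasma cells, was past 2-fold in Pax5sz2. Its named RNA was at 9.03 and 9.15 and the control at 7.97 and 8.03, ratios of 1.06 and 1.12 (2.13-fold higher). The ratios were 0.48 and 0.32 at 10 ng/ml, 1.08 and 0.67 at 300 ng/ml, and -0.31 and -0.20 at 1000 ng/ml as labelled. The probe lies at chr15:98554525-98554584 (mm8), and a second probe of Fkbp11 was not well above background. With median centring the Pax5sz2 ratio was 1.32 on average but no longer at least 1 on both arrays. The remaining genes of this group, Pdia6, P4hb and Fkbp2, had mean ratios from -0.32 (Pdia6 at 300 ng/ml) to 0.72 (P4hb at 1000 ng/ml as labelled). The arrays of P4hb at 300 ng/ml lay on opposite sides of 0 (0.49 and -0.02). Other probes of Pdia6 ran from -0.63 at 300 ng/ml to 0.93 at 1000 ng/ml as labelled.

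The degradation genes remove misfolded proteins through the Hrd1 complex, whose ligase is encoded by Syvn1 and whose partners are Sel1l, the derlins and Herpud1. Syvn1 had ratios of -0.36 and 0.17 at 10 ng/ml, 0.17 and 0.55 at 300 ng/ml, -1.08 and -0.63 at 1000 ng/ml as labelled, and -0.04 and 0.40 in Pax5sz2. The 1000 ng/ml pair had Syvn1 1.81-fold lower in the named RNA, but a second probe was at 0.01.

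Derl3, a derlin of secretory cells, was dim, at log2 levels of 6.67 to 7.80 on the 6 later arrays. Its ratios were -0.95 and -0.52 at 10 ng/ml, -1.01 and -0.56 at 300 ng/ml, and -0.06 and 0.03 in Pax5sz2. The RNAs did not overlap at 10 or at 300 ng/ml, and they did in Pax5sz2. Its control RNA was not well above background on either array of 1000 ng/ml, and the named RNA was at least 1.35-fold higher as labelled (mean levels 7.53 and 7.09).

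Edem1 was at 0.17 and 0.10 at 10 ng/ml, 0.33 and 0.09 at 1000 ng/ml as labelled, and 0.51 and 0.46 in Pax5sz2, and at 300 ng/ml its arrays differed as given above. Its 2 other probes had opposite signs to each other in Pax5sz2 (0.24 and -0.06). Herpud1, Sel1l, Derl1 and Derl2 had mean ratios from -0.28 (Herpud1 at 300 ng/ml) to 0.61 (Sel1l in Pax5sz2). Other probes of Sel1l in Pax5sz2 were at -0.24 and -0.36. Those of Derl1 ran from -0.51 at 10 ng/ml to 0.90 at 300 ng/ml. A second Derl2 probe was at -0.52 and -0.40 at 10 and 300 ng/ml, where the brightest was at 0.17 and 0.32.

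The translocation genes Sec61a1, Sec61b, Ssr1, Ssr2 and Ssr3 encode parts of the Sec61 channel and of the translocon-associated complex beside it. At 1000 ng/ml as labelled all 5 were above 0 on both arrays, with means from 0.45 to 0.64, where 33.7% of all features were, so all 5 would be below 0 with the pair turned. At 300 ng/ml 4 of 5 were below 0 on both arrays, where 35% of all features were. These 4 had means from -0.35 (Ssr2) to -0.12 (Sec61a1). Sec61b had arrays on opposite sides of 0 there, -1.87 and 0.10 (-0.89 ± 1.39). At 10 ng/ml 1 was above and 2 below, and in Pax5sz2 1 was above (Sec61b, 0.48 ± 0.068) and 2 below (Ssr2, -0.54 ± 0.025, and Ssr1, -0.31 ± 0.18). By its brightest probe, none was past 1.5-fold in any comparison. The 2 other probes of Ssr1 gave -0.72 and -0.58 at 10 ng/ml and -1.59 and -0.68 at 300 ng/ml. In Pax5sz2 they gave -0.25 and -1.19. Another probe of Ssr3 was at -0.23 at 1000 ng/ml as labelled, opposite in sign to the brightest.

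Of the sensors, Ern1, which encodes the IRE1 kinase and nuclease, was past 2-fold higher at 1000 ng/ml as labelled. Its named RNA was at 9.16 and 8.91 and the control at 8.15 and 7.87, ratios of 1.01 and 1.04 (2.04-fold), just past the limit. At 10 ng/ml the ratios were -0.59 and -0.69, at 300 ng/ml -0.72 and -1.0, and in Pax5sz2 -0.50 and -0.49. Within each comparison the named and control RNAs did not overlap, and with the 1000 ng/ml pair turned its ratio there would be -1.03. The probe lies at chr11:106213724-106213783 (mm8), and Ern1 has no second probe in the set. Agilent's processed signals (1.57 on average) and median centring (1.06) did not leave both arrays past 2-fold.

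Atf6 had means of -0.05 at 10 ng/ml, 0.75 at 1000 ng/ml as labelled and 0.26 in Pax5sz2. At 300 ng/ml array 1 was left out as an outlier and array 2 gave -0.22. A second Atf6 probe gave -0.41, -0.38, 0.22 and -0.57, in the order 10, 300, 1000 ng/ml and Pax5sz2. In Pax5sz2 it was thus opposite in sign to the brightest probe. Eif2ak3, which encodes the PERK kinase, had means of -0.62 ± 0.094, -0.25 ± 0.048, -0.34 ± 0.11 and 0.34 ± 0.046 in the order 10, 300, 1000 ng/ml and Pax5sz2. Ppp1r15a and Ppp1r15b encode the subunits that direct a phosphatase to eIF2alpha and so end the PERK response. Ppp1r15a, the stress-induced one, was at 0.62 and 0.70 at 10 ng/ml, at -0.75 and 0.57 on the arrays of 300 ng/ml and at -0.66 and -0.48 in Pax5sz2.

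**Figure D4:**
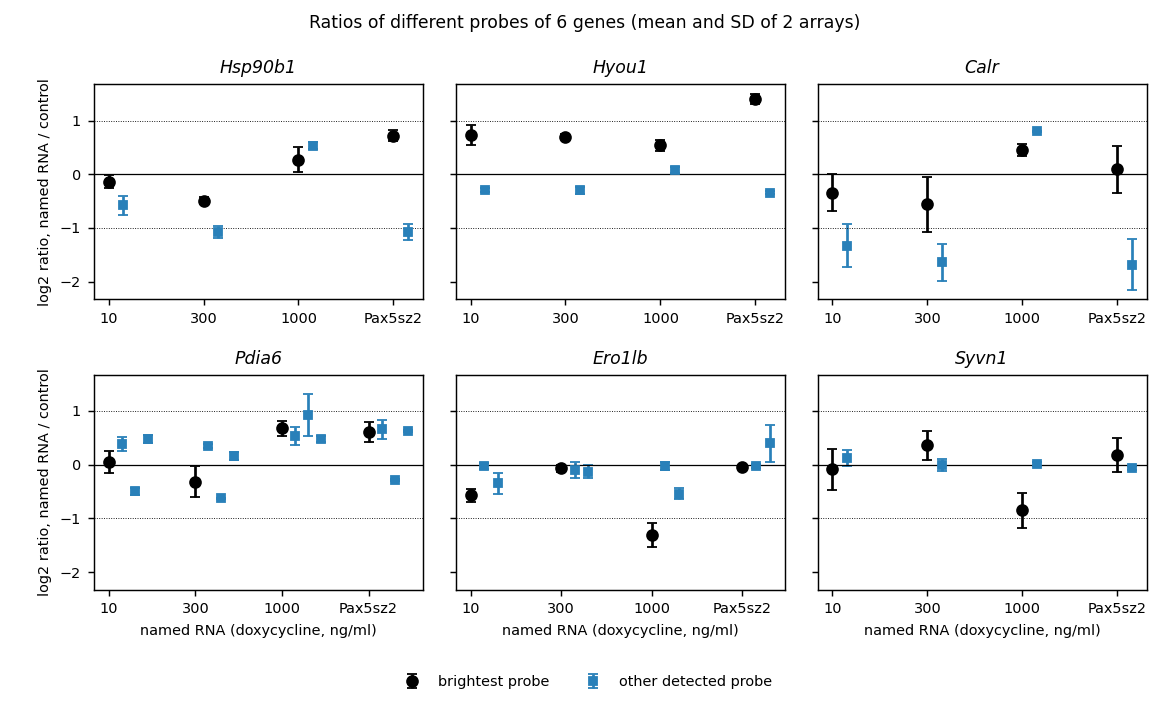
Mean log2 ratio of 2 arrays (y axis, bars are SD) for the brightest probe (black) and the other detected probes (blue squares) of 6 genes in the 4 comparisons (x axis). The probes of Hyou1 lie on opposite sides of 0 in Pax5sz2, and the second Calr probe lies below the first by over 1 at 300 ng/ml and in Pax5sz2.

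How far a gene's probes differed is a limit on all these values. In the set 20 genes had another detected probe, 34 probes in all, and 17 had none. At least 1 other probe had the opposite sign to the brightest in 11, 11, 4 and 10 of these 20 genes, in the order 10, 300, 1000 ng/ml and Pax5sz2. The largest gap exceeded 1 on the log2 scale for Hyou1 at 10 ng/ml, for Calr, Dnajc3, Edem1 and Ssr1 at 300 ng/ml, for Ero1lb at 1000 ng/ml, and for Hsp90b1, Hyou1 and Calr in Pax5sz2. Probe sequences and the transcripts they cover were not analysed here.

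**Figure D5:**
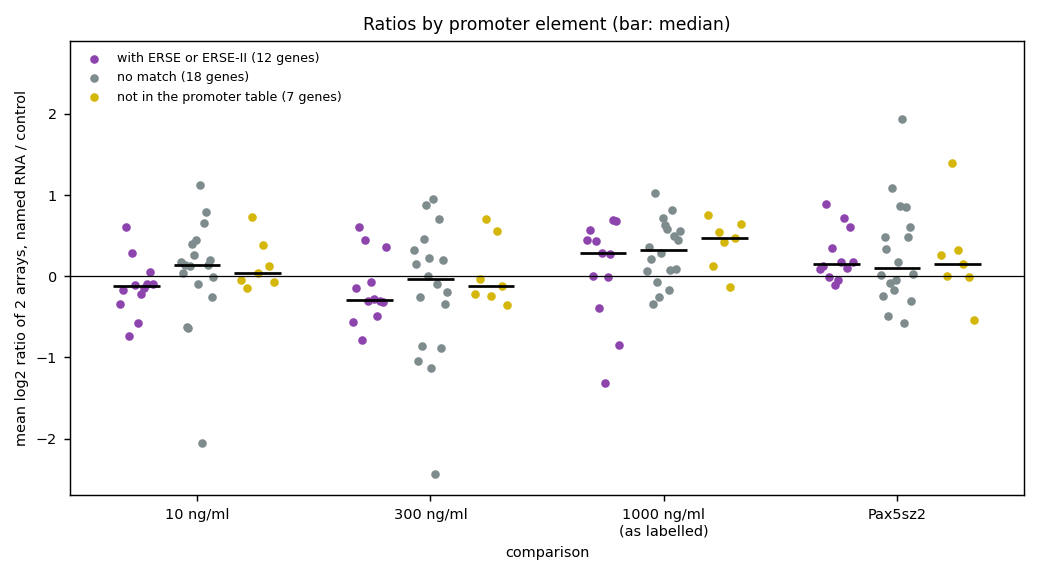
Mean log2 ratio of 2 arrays (y axis) in the 4 comparisons (x axis) for genes with an ERSE or ERSE-II match (purple), without one (grey) and outside the promoter table (yellow), with a black bar at each median. The purple and grey points overlap in every comparison.

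The ratios of genes with the promoter elements printed above overlapped those of the other genes in every comparison. The 12 genes with an ERSE or ERSE-II match had median ratios of -0.12, -0.29, 0.28 and 0.15, in the order 10, 300, 1000 ng/ml (as labelled) and Pax5sz2. The 18 genes without a match had 0.14, -0.04, 0.32 and 0.10. For the 7 genes with no promoter given they were 0.04, -0.12, 0.47 and 0.15. Below 0 on both arrays were 7, 8, 3 and 2 of the 12 genes with a match and 4, 7, 4 and 6 of the 18 without one, in the same order, and 36%, 35%, 30.5% and 35.2% of all features. The largest ratio of a gene with a match was that of Ero1lb (-1.31), and Pdia5 and Fkbp11 had no match, while Hyou1 was not in the table. The grouping was made after the ratios were known and was not tested.

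Across the doses, the mean doxycycline effect was fitted with limma over the 3 doses, which stand in for replicates, so that the control RNA's own spread does not enter. As labelled, 0 of 37 genes passed an adjusted p of 0.05, and 0 of 19988 features (0%, smallest adjusted p = 0.701). Without adjustment, 5 genes had a p under 0.05, 4 higher (3.16% of all features) and 1 lower (2.76%). These were Sdf2l1 (effect 0.77 ± 0.063 SE), Hyou1 (0.66 ± 0.074), Pdia4 (0.88 ± 0.14) and P4hb (0.47 ± 0.12), higher, and Eif2ak3 (-0.40 ± 0.10), lower, each with a limma adjusted p of 0.701. With robust and trended eBayes, 0 genes and 0 features had an unadjusted p under 0.05, so all 5 were lost. With the sign of the 1000 ng/ml pair turned, 0 genes and 0 features passed (smallest adjusted p = 0.12), and 9 genes had an unadjusted p under 0.05, 3 higher (9.81% of all features) and 6 lower (14.7%).

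Within the later scan batch, that is with the 10 and 300 ng/ml pairs alone, 7 of 37 genes passed, where 14.1% of all features did. Higher were 4 genes (5.56% of all features), Sdf2l1 (0.75 ± 0.065 SE, limma adjusted p = 0.0384), Hyou1 (0.71 ± 0.061, 0.0384), Pdia4 (1.03 ± 0.077, 0.0381) and Creld2 (0.60 ± 0.060, 0.0393). Lower were 3 (8.53%), Pdia5 (-2.24 ± 0.13, 0.0381), Derl3 (-0.76 ± 0.061, 0.0381) and Ern1 (-0.75 ± 0.087, 0.0418). These genes are named because they passed this alternative, which is not the result over the 3 doses. It rests on 2 RNAs measured against RNA labelled as the same control, so a difference in that control alone would move both.

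Genes around the set were read from lists of the same pathway. In the order 10, 300, 1000 ng/ml (as labelled) and Pax5sz2, 0.595%, 1.31%, 1.94% and 2.34% of all features were past 2-fold higher. Past 2-fold lower were 1.27%, 2.36%, 0.635% and 2.82%. The transcription factors of the response and their proteases had 0 of 12 past 2-fold at the 3 doses and 1 higher in Pax5sz2, Creb3l2, a membrane-bound factor (1.63 ± 0.0043, another probe differing). Xbp1, the factor that IRE1 activates by splicing, had means of 0.06, -0.04, 0.12 and 0.45 in the order 10, 300, 1000 ng/ml and Pax5sz2, and Ddit3, a factor of prolonged stress, 0.00, 0.11, -0.03 and -0.46. These probes were not read for splicing.

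Of 26 further folding enzymes, 1 was past 2-fold, Mogs, the glucosidase that trims the first sugar from new glycoproteins (1.13 ± 0.097 at 300 ng/ml). Of 22 further degradation genes, Ube2j1, a ubiquitin-conjugating enzyme of the membrane, was lower at 1000 ng/ml as labelled (-1.24 ± 0.14) and Svip, an inhibitor of degradation, was higher in Pax5sz2 (1.94 ± 0.11). Of 30 further translocation genes, 1 passed, Spcs1 of the signal peptidase, with -1.30 ± 0.23 for 300 ng/ml and 2.02 ± 0.0056 for 1000 ng/ml as labelled.

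Of 26 transport genes between the endoplasmic reticulum and the Golgi, Kdelr2, a receptor that returns chaperones, had 1.19 ± 0.24 and 1.16 ± 0.023 for 10 and 300 ng/ml, with another probe differing. Tmed9, a cargo receptor, was at 1.30 ± 0.10 in Pax5sz2. In this list 19 of 26 were above 0 on both arrays at 10 ng/ml (73.1%, against 38.5% of all features) and 17 at 300 ng/ml (65.4%, against 35.8%), with medians of 0.27 and 0.30. Of 23 cytosolic and mitochondrial chaperones, Hsph1, an exchange factor of HSP70, was higher with 10 ng/ml (1.33 ± 0.10), with 300 ng/ml (1.77 ± 0.032) and in Pax5sz2 (1.45 ± 0.30), where Hspa1a, an inducible HSP70, was lower (-1.49 ± 0.22).

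Targets of ATF4, the factor that PERK and amino acid shortage share, were mostly lower than the control at 1000 ng/ml as labelled. There 18 of 20 were below 0 on both arrays, against 30.5% of all features (median -0.76, or 0.76 turned). Past 2-fold, 4 were lower (0.635% of all features) and 0 higher (1.94%). The lower ones included the enzyme genes Asns (-2.65 ± 0.30) and Mthfd2 (-1.61 ± 0.33) and the pseudokinase gene Trib3 (-2.35 ± 0.18). At 300 ng/ml 13 of 20 were above 0 on both arrays (35.8% of all features) and 1 below (35%), with a median of 0.44 that rests on arrays far apart, 0.08 on array 1 and 0.67 on array 2. There Atf3 (2.28 ± 0.33), Mthfd2 (1.5 ± 0.17) and Sesn2 (1.38 ± 0.12, another probe differing) were past 2-fold. At 10 ng/ml Atf3 (1.82 ± 0.19) and Cebpb (1.45 ± 0.036) were, and in Pax5sz2 Asns (1.65 ± 0.083) and Sesn2 (1.26 ± 0.022, another probe differing).

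Markers of other cells differed beside these values. In these bulk cultures, fewer cells of a type and less RNA per cell cannot be told apart. For the counts below, the shares of all features past 2-fold higher were 0.595%, 1.31%, 1.94% and 2.34%. The shares lower were 1.27%, 2.36%, 0.635% and 2.82%, both in the order 10, 300, 1000 ng/ml (as labelled) and Pax5sz2. Of 20 stromal genes, which the OP9 layer would express, 4, 8, 0 and 5 were past 2-fold higher and 0 lower, with medians of 0.76, 1.00, -0.10 and 0.16, in the order 10, 300, 1000 ng/ml and Pax5sz2. Their defining genes Dcn and Lum were in neither RNA well above background at 300 and 1000 ng/ml. The summed level of the stromal genes was 15.42 to 15.82 (log2) in the named RNAs of 10 and 300 ng/ml and 14.10 to 14.61 in the control. In Pax5sz2 it was 15.38 to 15.44 against 14.61 to 14.66, and at 1000 ng/ml 14.47 to 14.75 against 14.56 to 14.79. Cxcl12 (1.45 ± 0.013), Col3a1 (1.27 ± 0.047, another probe differing) and Ccn1 (1.24 ± 0.081) led at 10 ng/ml. Col3a1 (1.91 ± 0.064) and Vcam1 (1.86 ± 0.20), both with another probe differing, and Cxcl12 (1.75 ± 0.28) led at 300 ng/ml. In Pax5sz2 these were Col5a2 (2.75 ± 0.021), Cxcl12 (1.78 ± 0.12) and Thy1 (1.68 ± 0.11, another probe differing). Of 19 myeloid genes on the array, 16 passed the filter, and Csf3r, Ngp and S100a8 were in neither RNA well above background in any comparison. Past 2-fold lower were 1 at 10 ng/ml (Tyrobp, -1.35 ± 0.15), 5 at 300 ng/ml, led by Fcer1g (-3.40 ± 0.18), Tyrobp (-3.39 ± 0.0091) and Ctsg (-2.98 ± 0.12), and 3 in Pax5sz2, Fcgr3 (-4.08 ± 0.15), Ctsg (-1.68 ± 0.27) and Fcer1g (-1.09 ± 0.044). As labelled, 6 were higher at 1000 ng/ml, led by Ctsg (5.14 ± 0.19), Fcer1g (4.46 ± 0.046) and Tyrobp (4.06 ± 0.098). The summed myeloid level in the named RNA and in the control was 15.99 to 16.24 and 16.30 to 16.46 at 10 ng/ml, and 15.32 to 15.36 and 16.37 to 16.50 at 300 ng/ml. It was 16.49 to 16.68 and 14.45 to 14.65 at 1000 ng/ml as labelled, and 15.99 to 16.09 and 16.51 to 16.54 in Pax5sz2. Of 10 plasma cell markers, Prdm1, which drives plasma cell differentiation, was in neither RNA well above background in any comparison, and 9 were tested. In Pax5sz2 2 were past 2-fold higher, Ell2 (1.68 ± 0.020, another probe differing) and Jchain (1.40 ± 0.39), with a summed level of 17.23 to 17.36 against 16.45 to 16.71 in the control. Jchain was lower at 300 ng/ml (-1.35 ± 0.24), where Irf4 was higher (1.11 ± 0.019), and Jchain was higher at 1000 ng/ml as labelled (3.75 ± 0.20). Slamf7 and Irf4 were past 2-fold lower there, in a named RNA where neither was well above background. The summed plasma cell level in the named RNA and in the control was 16.33 to 16.46 and 16.47 to 16.63 at 10 ng/ml, 15.91 to 16 and 16.61 to 16.62 at 300 ng/ml, and 16.97 to 17.06 and 16.28 to 16.42 at 1000 ng/ml as labelled. Pro-B cell markers had medians of -0.46, -0.11, -0.49 and -0.07 in the order 10, 300, 1000 ng/ml and Pax5sz2. At 10 ng/ml 10 of 15 were below 0 on both arrays (66.7%, against 36% of all features). Those past 2-fold included Ikzf1 at 10 ng/ml (-1.45 ± 0.012) and at 300 ng/ml (-1.68 ± 0.90), and Cd79a (-1.44 ± 0.32) and Ebf1 (-1.09 ± 0.11, another probe differing) at 1000 ng/ml as labelled. In Pax5sz2 3 were higher and 2 lower, led by Vpreb1 (7.88 ± 0.94), Igll1 (5.65 ± 0.44) and Dntt (-4.89 ± 0.32). The part of any of these cells in the ratios of the set was not tested.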

How the data were processed

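The scanner files hold spot intensity values that the authors deposited, read with Agilent Feature Extraction 10.5.1.1 per the file headers. They also hold log10 ratios of red over green, deposited by the authors, and the series matrix holds the same log10 ratios turned to the named RNA over the control, with a median of 0 on each array. Probe positions are on mm8, per the file headers.

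Mean and local background signals were corrected with limma 3.58.1 in R 4.3.3 (normexp, offset 50) and loess was fitted within each array with control spots at weight 0. Outlier spots (37 to 295 per array) were left out, spots of a probe were averaged, and log2 ratios were computed from the deposited intensities and turned to named over control. The brightest detected probe stood for a gene. A call needed at least 2-fold on both arrays. The test was limma's eBayes fit over the 3 doses, with Benjamini-Hochberg adjustment over all features, repeated with the 1000 ng/ml pair turned and with the 10 and 300 ng/ml pairs alone. The fit over 3 doses was also run on simulated data, with the same effect at every dose and independent noise. The real doses share RNA labelled as the same control, so that run checks the code and not the results here.

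Array values are given for genes past 2-fold, for the 4 genes with the largest mean ratio in each comparison, and for Hspa5, Hsp90b1 and Calr. Ppp1r15a and Sec61b are given by array too, and so are the genes named from the limma fits, except P4hb and Eif2ak3, given mainly as means. All of these were chosen after their values were seen. From each further list up to 3 genes past 2-fold per comparison are named, except for a result that is not reported here. The genes and lists were chosen with earlier results of these data known, and the promoter search and control level ranges were added after the data were seen. Replicate numbers are array order only.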

Additional observations from a re-analysis of the deposited data

Results flagged for a closer look

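The results here are past 2-fold on both arrays in opposite directions in different comparisons. Whether the comparisons differ was not tested. The ratio of Pdia5 was -2.05 and -2.43 for 10 and 300 ng/ml, and 1.93 in Pax5sz2. Spcs1 had -1.30 for 300 ng/ml and 2.02 for 1000 ng/ml as labelled. Asns was at -2.65 at 1000 ng/ml as labelled and 1.65 in Pax5sz2. Mthfd2 had 1.5 for 300 ng/ml and -1.61 for 1000 ng/ml as labelled. The signs at 1000 ng/ml rest on a pair whose direction is not settled, and the control level of Pdia5 differed between comparisons.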

How the results depend on the processing

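Agilent's processed signals gave 1035, 1876 and 2130 features past 2-fold at 10 and 300 ng/ml and in Pax5sz2, 2, 3 and 1 genes of the set at 10, 300 and 1000 ng/ml, and a median of the set of 0.51 at 1000 ng/ml. The series matrix gave 1051, 1844, 918 and 2168 features over the 4 comparisons, 2 and 3 genes at 10 and 300 ng/ml, and medians of -0.07 at 300 and 0.42 at 1000 ng/ml. Median centring gave 148, 479, 193 and 680 features, medians of 0.31, 0.00, 0.26 and 0.63, 2 genes at 10 and 0 at 1000 ng/ml, and a mean doxycycline effect of 0.05 for Hsp90b1. The mean over probes gave medians of -0.10 at 300 and 0.29 at 1000 ng/ml and 1 gene at 1000 ng/ml, and an offset of 16 gave a median of 0.41 there. A limit of 1.5-fold gave 6, 5, 4 and 7 genes and 1668, 2501, 1363 and 2792 features.

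With the 1000 ng/ml pair turned, Ern1 was at -1.03, Ero1lb at 1.31 and the median at -0.36, and the mean effects of Hspa5 and P4hb were -0.36 and -0.01. With the 10 and 300 ng/ml pairs alone, 7 genes and 2816 features passed the limma test, and the effect of Hspa5 was -0.20. Leaving out either array gave 1 to 2 genes at 10 ng/ml, 1 to 6 at 300 ng/ml and 2 to 4 at 1000 ng/ml, with 553 to 689 and 1090 to 2257 features at 10 and 300 ng/ml. The medians were -0.10 to -0.08 at 300 ng/ml and 0.31 to 0.34 at 1000 ng/ml. The 6 genes and 2257 features came from array 1 at 300 ng/ml alone, and the mean effect of Calr ran from -0.38 without replicate 2 to 0.08 without replicate 1. The causes of these shifts were not tested, except that 1 array or 2 doses are fewer samples. Atf6 at 300 ng/ml has no value without array 2. Dropping the filter on dim probes moved no count of calls by over 1.5 times. With robust and trended eBayes 0 genes and 0 features passed, as before, but those with an unadjusted p under 0.05 went from 5 genes and 1184 features to 0 and 0.

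No paired analysis was possible because replicate numbers are array order only and both arrays of a comparison hold the same RNA extracts. One RNA per condition and 1 clone limit all values. At 1000 ng/ml fewer spots were also called well above background, by a call with another multiplier.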
